A study of Mus musculus with 6 samples.

Results

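The naive and memory T cell program was followed through 9 genes whose products keep resting T cells alive, in circulation and undifferentiated, or mark T cells that have met antigen. They are the receptor genes Ccr7, S1pr1, Il7r and Cd44 and the transcription factor genes Lef1, Tcf7, Klf2, Bach2 and Satb1. The genes were listed by symbol and looked up in the deposited count table, where all 9 were found among 47729 genes.

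Naive T cells patrol the white pulp of the spleen and the lymph nodes. CCR7 guides them into T cell zones, S1PR1 lets them leave again, and signals through the IL-7 receptor sustain them and long-lived memory cells. TCF-1 (encoded by Tcf7), LEF-1, KLF2, BACH2 and SATB1 hold the naive or memory state at the level of transcription, whereas CD44 rises on T cells after activation. None of the 9 genes is restricted to T cells. For example, B cells also use Ccr7, S1pr1, Klf2, Bach2 and Satb1, and myeloid cells carry much CD44.

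Whole spleens were taken from 3 females of NOD.B10Sn-H2b/J (NOD.B10), a congenic strain on the NOD background that develops a disease resembling primary Sjögren's syndrome, and from 3 females of the C57BL/10 (BL/10) control strain. No treatment was named for either group. The NOD.B10 mice had clinical disease at the time of harvest according to the study, and RNA was sequenced as single-end reads. All 3 NOD.B10 libraries and BL/10 replicate 1 were labelled 26 weeks old, whereas BL/10 replicates 2 and 3 were labelled 36 weeks old although the study describes its animals as age matched. The total count was 16476126, 16257041 and 17160323 in NOD.B10 replicates 1 to 3 and 18298451, 15662712 and 17935130 in BL/10 replicates 1 to 3.

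The labels conflicted on strain. Sample descriptions and column names put libraries 1 to 3 in NOD.B10 and libraries 7 to 9 in BL/10, but sample titles and the strain field said the opposite for all 6. The column names were followed, so each direction below would be reversed if the titles were right. One library stood apart from the others before any gene was considered. In BL/10 replicate 1, 16 pancreas acinar genes took 1.49% of all counts, compared with 0.214% and 0.0113% in BL/10 replicates 2 and 3 and at most 0.00322% in NOD.B10 libraries. That library was also the only BL/10 library labelled 26 weeks, so its age label and its own peculiarities cannot be told apart. Results are therefore also given without it.

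Lef1 and Tcf7 showed the widest gap between the strains, and all 3 NOD.B10 spleens held more of both transcripts than any BL/10 spleen. S1pr1, Il7r and Satb1 were also higher in NOD.B10. For Ccr7, Klf2 and Bach2 the libraries of the strains overlapped, and Cd44 was slightly lower in each NOD.B10 library without reaching the threshold. In edgeR's quasi-likelihood test across 15330 genes, with BL/10 as the reference, 5 of the 9 genes were higher in NOD.B10 at an adjusted p under 0.05 and none was lower, whereas 9.11% of all genes tested were higher, 8.22% were lower and 17.3% passed in either direction. For the same 5 genes all NOD.B10 libraries lay above all BL/10 libraries, an arrangement found for 20.5% of all genes tested. The median log2 fold change was 0.75 over the 9 genes and 0.0006 over all genes tested. All 9 genes passed the filter on low counts. Because these are whole spleens, fewer cells of a type and less RNA per cell cannot be told apart.

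**Figure D1:**
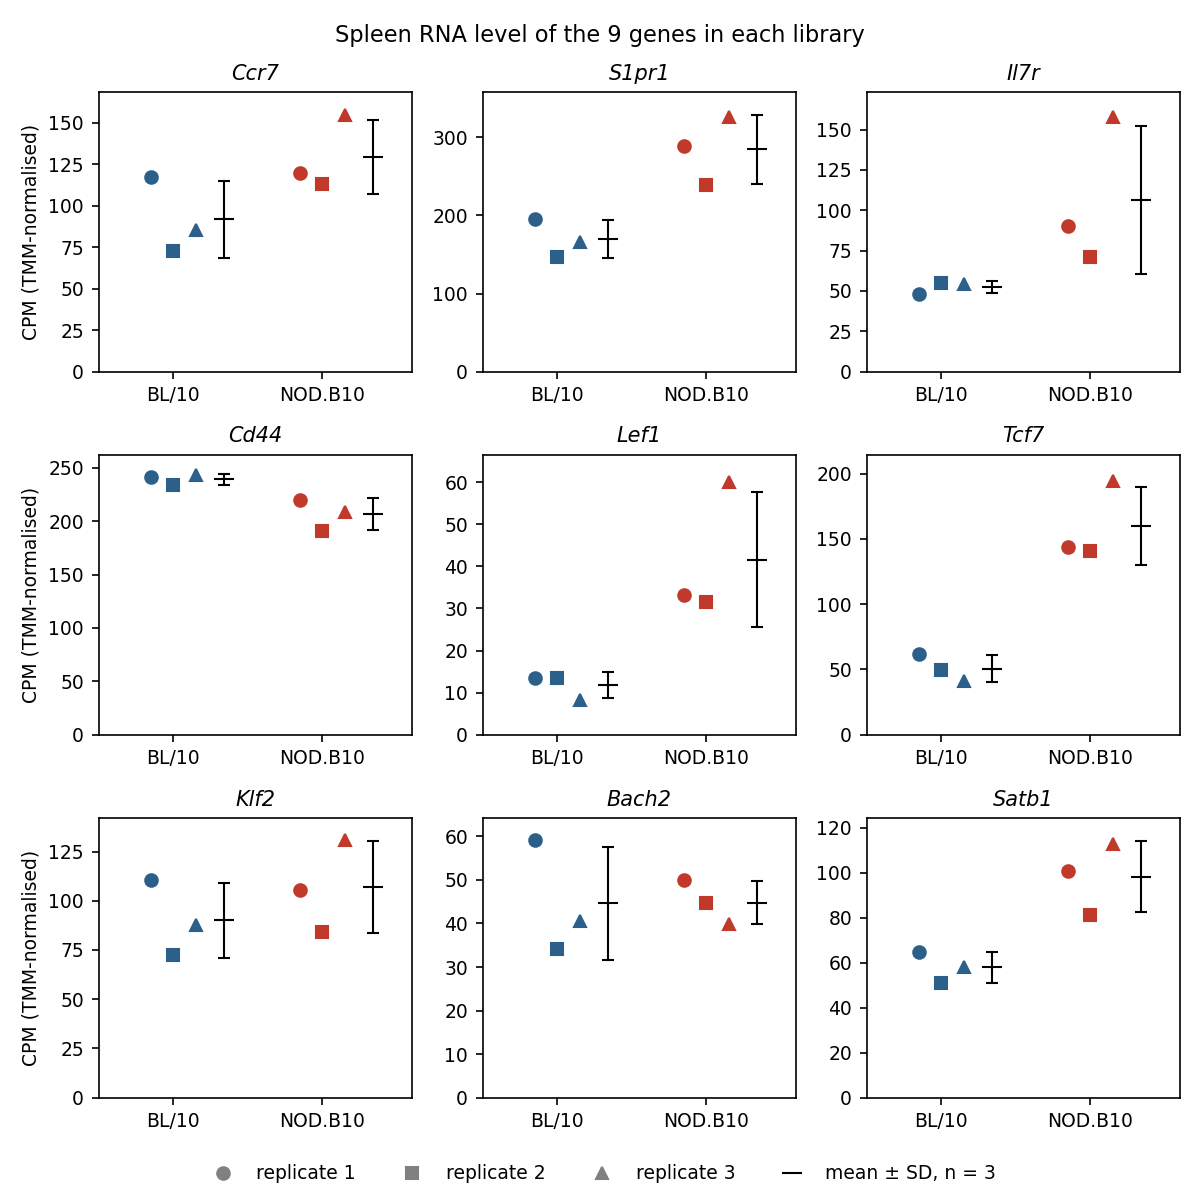
TMM-normalised CPM (counts per 1000000) of each gene on the y axis for 3 BL/10 libraries (blue) and 3 NOD.B10 libraries (red), with marker shape for the replicate and black bars for the mean ± SD. Lef1 and Tcf7 showed a clear gap between the strains, whereas Ccr7, Klf2 and Bach2 overlapped.

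Among the receptors, Il7r (ENSMUSG00000003882, chr15:9505788-9530176) encodes the alpha chain of the IL-7 receptor. Its level was 90.0, 70.8 and 158 CPM (counts per 1000000 of the TMM-normalised library size) in NOD.B10 replicates 1 to 3 and 48.2, 54.7 and 54.2 CPM in BL/10 replicates 1 to 3. The strains did not overlap, but NOD.B10 replicate 3 lay far above the other NOD.B10 libraries, whereas the BL/10 libraries were close together. NOD.B10 exceeded BL/10 by a log2 fold change of 1.02 (SE 0.27, edgeR adjusted p = 0.0379). Without NOD.B10 replicate 3 it was 0.62, with an adjusted p of 0.0346 in edgeR. The call was lost without NOD.B10 replicate 1 (edgeR adjusted p = 0.0731) and without BL/10 replicate 1, 2 or 3 (edgeR adjusted p = 0.0583, 0.0950 and 0.0971). It was also lost with limma-voom (adjusted p = 0.0527).

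S1pr1 (ENSMUSG00000045092, chr3:115710433-115715072) encodes the sphingosine-1-phosphate receptor through which lymphocytes leave lymphoid organs. Its transcripts reached 289, 239 and 326 CPM in NOD.B10 and 195, 147 and 167 CPM in BL/10, in replicate order. Every NOD.B10 library lay above every BL/10 library, and BL/10 replicate 1 came closest to NOD.B10. The difference corresponded to a log2 fold change of 0.75 (SE 0.15, edgeR adjusted p = 0.0153). The adjusted p in edgeR rose to 0.0619, 0.0548 and 0.0545 without NOD.B10 replicate 1, NOD.B10 replicate 3 and BL/10 replicate 3. Its log2 fold change stayed between 0.64 and 0.86 with each library left out.

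Ccr7 (ENSMUSG00000037944, chr11:99144196-99155077) encodes the receptor for the chemokines CCL19 and CCL21. It was measured at 120, 113 and 155 CPM in NOD.B10 and at 117, 72.4 and 85.5 CPM in BL/10. BL/10 replicate 1 fell among the NOD.B10 libraries, while the other BL/10 libraries were lower than all of them. The log2 fold change of 0.49 (SE 0.19) did not reach the threshold (edgeR adjusted p = 0.117). Without BL/10 replicate 1 it was 0.70 with an adjusted p of 0.0164 in edgeR.

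Cd44 (ENSMUSG00000005087, chr2:102811141-102901665) encodes a hyaluronan receptor that is used to separate memory from naive T cells. NOD.B10 libraries contained 220, 191 and 209 CPM and BL/10 libraries 242, 234 and 243 CPM. It was the only gene of the 9 for which all NOD.B10 libraries lay below all BL/10 libraries, an arrangement found for 17.5% of the genes tested. The gap was narrow, with a log2 fold change of -0.21 (SE 0.09) and an adjusted p of 0.160 in edgeR. With library-size scaling, no setting brought it past the threshold, and the log2 fold change lay between -0.26 and -0.16 under all of them.

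Among the transcription factors, Lef1 (ENSMUSG00000027985, chr3:131110471-131224356) and Tcf7 encode a pair of related HMG-box proteins that bind the same DNA letters and can recruit beta-catenin. Lef1 was found at 33.1, 31.6 and 60.1 CPM in NOD.B10 and at 13.6, 13.5 and 8.24 CPM in BL/10. The lowest NOD.B10 library was thus well above the highest BL/10 library, and NOD.B10 replicate 3 again had the highest value. This made a log2 fold change of 1.82 (SE 0.30, edgeR adjusted p = 0.00631), or 3.54-fold. It lay between 1.46 and 1.99 with each library left out, and each of these fits kept it past the threshold. With age as a covariate it was 1.62, and the call was lost.

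Tcf7 (ENSMUSG00000000782, chr11:52252371-52283014) had 144, 141 and 194 CPM in NOD.B10 and 61.4, 49.8 and 40.8 CPM in BL/10. No library of one strain came near those of the other. With a log2 fold change of 1.66 (SE 0.18, edgeR adjusted p = 0.00118), the transcript was 3.15-fold more abundant in NOD.B10 spleens. Tcf7 was the only one of the 9 genes to pass the threshold of 0.05 under each setting tried with library-size scaling, with adjusted p up to 0.0159 in edgeR when only libraries labelled 26 weeks were compared.

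Satb1 (ENSMUSG00000023927, chr17:51736187-51833290) encodes a chromatin organiser needed for T cell development in the thymus. NOD.B10 spleens gave 101, 81.4 and 113 CPM, and BL/10 spleens gave 64.9, 51.0 and 58.1 CPM. The strains did not overlap. Satb1 was higher by a log2 fold change of 0.76 (SE 0.14, edgeR adjusted p = 0.0108). It stayed past the threshold with each library left out, at values between 0.65 and 0.88. The call was lost with age as a covariate (log2 fold change 0.60).

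Klf2 (ENSMUSG00000055148, chr8:72319033-72321656) encodes a zinc finger factor that promotes quiescence and the transcription of S1pr1. Its levels were 106, 84.3 and 131 CPM in NOD.B10 and 110, 72.4 and 87.5 CPM in BL/10. The strains overlapped, since BL/10 replicate 1 exceeded NOD.B10 replicates 1 and 2. The log2 fold change was 0.25 (SE 0.20, edgeR adjusted p = 0.408), with a 95% confidence interval from -0.21 to 0.70. With each library left out it ranged from 0.08 without NOD.B10 replicate 3 to 0.41 without BL/10 replicate 1, and it was called in none of these fits.

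Bach2 (ENSMUSG00000040270, chr4:32238804-32586108) encodes a repressor that restrains effector differentiation in T cells and plasma cell differentiation in B cells. It had 49.9, 44.6 and 39.9 CPM in NOD.B10 and 59.2, 34.1 and 40.5 CPM in BL/10. The NOD.B10 values fell within the span of the BL/10 values, which BL/10 replicate 1 widened. The estimate was close to 0 (log2 fold change 0.0051, SE 0.20, edgeR adjusted p = 0.990), and its 95% confidence interval from -0.45 to 0.46 left room for a difference in either direction.

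Within NOD.B10, replicate 3 was highest for 7 of the 9 genes and replicate 2 was lowest for 8. Within BL/10, replicate 1 was highest for 7 genes. Without BL/10 replicate 1, 5 of the 9 genes passed the threshold in edgeR, with Ccr7 gained and Il7r lost, beside 26.3% of all genes tested. The log2 fold change then was 1.93 for Lef1, 1.81 for Tcf7, 0.85 for S1pr1 and 0.84 for Satb1. For genes not called it was 0.95 for Il7r, 0.41 for Klf2, 0.25 for Bach2 and -0.21 for Cd44. In the libraries labelled 26 weeks, which leave BL/10 replicate 1 alone against 3 NOD.B10 libraries and so assume that its spread equals theirs, Tcf7 was the only gene called, beside 6.19% of all genes tested. There the log2 fold change was 1.38 for Tcf7, 1.62 for Lef1, 1.14 for Il7r, 0.60 for Satb1 and 0.55 for S1pr1. For Lef1 the adjusted p was 0.0761 in edgeR. In the same comparison the estimate was 0.14 for Ccr7, -0.04 for Klf2 and -0.40 for Bach2, so that the last 2 pointed the other way. Without NOD.B10 replicate 1 or without BL/10 replicate 3, 3 of the 9 genes passed in edgeR, as S1pr1 and Il7r were lost, beside 8.12% and 11.2% of all genes tested.

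T cell markers lay on the same side as the 5 called genes. None of the 20 marker genes is among the 9. At an adjusted p under 0.05 in edgeR, 17 of the 20 were higher in NOD.B10 and none was lower. Among all genes tested, 9.11% were higher and 8.22% were lower. The markers had a median log2 fold change of 1.16. Their summed level was 1521, 1410 and 1880 CPM in NOD.B10 replicates 1 to 3 and 960, 788 and 702 CPM in BL/10 replicates 1 to 3. As with the 9 genes, NOD.B10 replicate 3 was the highest library of its strain, for 20 of the 20 markers, and BL/10 replicate 1 was the highest of its strain for 16. No marker was at 0. The most abundant was Cd4, the co-receptor of helper T cells, at 198, 192 and 232 CPM in NOD.B10 and 132, 86.1 and 101 CPM in BL/10 (log2 fold change 0.96, SE 0.17, edgeR adjusted p = 0.00805), and it lost the call with age as a covariate (log2 fold change 0.65).

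The markers that did not pass were Cd2, an adhesion molecule also found on NK cells and mouse B cells, and the genes of both chains of CD8, the co-receptor of cytotoxic T cells. The log2 fold change was 0.12 for Cd2, 0.16 for Cd8a and -0.40 for Cd8b1 (SE 0.20, 0.17 and 0.20, edgeR adjusted p = 0.715, 0.528 and 0.190). Cd8b1 measured 24.6, 27.1 and 40.8 CPM in NOD.B10 and 39.0, 46.9 and 36.5 CPM in BL/10, and the strains overlapped. Without BL/10 replicate 1, Cd2 passed the threshold (log2 fold change 0.41, edgeR adjusted p = 0.0209), and without NOD.B10 replicate 3 Cd8b1 passed on the lower side (log2 fold change -0.65, edgeR adjusted p = 0.0394). The part of the T cell marker level in the differences of the 9 genes was not tested.

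The 9 genes were also set against that marker level, by using the summed count of the 20 markers in place of the library size. On this scale the median of all tested genes was -0.97, because the markers themselves were higher in NOD.B10, and 84.3% of all genes were lower and 2.04% were higher at an adjusted p under 0.05 in edgeR. Of the 9 genes, Lef1 and Tcf7 were higher, Cd44, Bach2, Klf2 and Ccr7 were lower, and S1pr1, Satb1 and Il7r did not reach the threshold. The 4 genes on the lower side are thus not set apart from most genes tested.

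Per 1000 T cell marker counts, Tcf7 stood at 94.5, 99.9 and 103 in NOD.B10 libraries, against 64.0, 63.1 and 58.1 in BL/10. Lef1 stood at 21.8, 22.4 and 32.0 per 1000 in NOD.B10 libraries, against 14.1, 17.2 and 11.7 in BL/10. Both genes kept the strains apart on this scale. The log2 fold change was 0.68 for Tcf7 (SE 0.20, edgeR adjusted p = 0.00515) and 0.82 for Lef1 (SE 0.23, edgeR adjusted p = 0.00359). When only the 4 CD3 chain genes Cd3d, Cd3e, Cd3g and Cd247 formed the sum, these values were 0.35 (edgeR adjusted p = 0.148) and 0.49 (edgeR adjusted p = 0.0570), and neither gene was called. With the CD3 sum, S1pr1 and Satb1 were lower at -0.58 and -0.57 (edgeR adjusted p = 0.0303 and 0.0244), where 91.6% of all genes were lower, 1.59% were higher and the median was -1.32, so both genes lay above the typical gene. Relative to the median of all genes on the scale of 20 markers, Lef1 stood at 1.80 and Tcf7 at 1.66. Such distances from the median nearly restate the values with library-size scaling (1.82 and 1.66), since marker scaling moves all genes about alike.

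Among the receptors, S1pr1 had 190, 169 and 174 counts per 1000 marker counts in NOD.B10 libraries, against 203, 187 and 237 in BL/10. Il7r had 59.2, 50.2 and 84 per 1000 in NOD.B10 libraries, against 50.2, 69.4 and 77.3 in BL/10. The strains overlapped for both, with log2 fold changes of -0.24 and -0.02 (SE 0.22 and 0.24, edgeR adjusted p = 0.318 and 0.928). Ccr7 had 78.8, 80.1 and 82.2 per 1000 in NOD.B10, a nearly constant ratio, and 122, 91.9 and 122 in BL/10. Its log2 fold change of -0.48 (SE 0.21, edgeR adjusted p = 0.0434) lost the call in 5 of the 6 fits without a library, with adjusted p up to 0.157. Cd44 had 145, 136 and 111 per 1000 in NOD.B10 libraries, against 252, 296 and 346 in BL/10 (log2 fold change -1.19, SE 0.23, edgeR adjusted p = 0.000411). It was the only gene of the 9 that lay below the median of all genes on this scale, by 0.22. This distance nearly restates its log2 fold change of -0.21 with library-size scaling.

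For the remaining factors, Satb1 had 66.3, 57.7 and 60.0 counts per 1000 marker counts in NOD.B10 libraries, against 67.6, 64.6 and 82.8 in BL/10. The strains overlapped (log2 fold change -0.22, SE 0.21, edgeR adjusted p = 0.309). With each library left out, this value ran from -0.29 to -0.11 and that of S1pr1 from -0.31 to -0.13, with neither gene called. Klf2 and Bach2 were lower in all NOD.B10 libraries on this scale, with log2 fold changes of -0.74 and -0.93 (SE 0.21 and 0.23, edgeR adjusted p = 0.00438 and 0.00166). They lay 0.24 and 0.048 above the median of all genes, near their values of 0.25 and 0.0051 with library-size scaling.

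**Figure D2:**
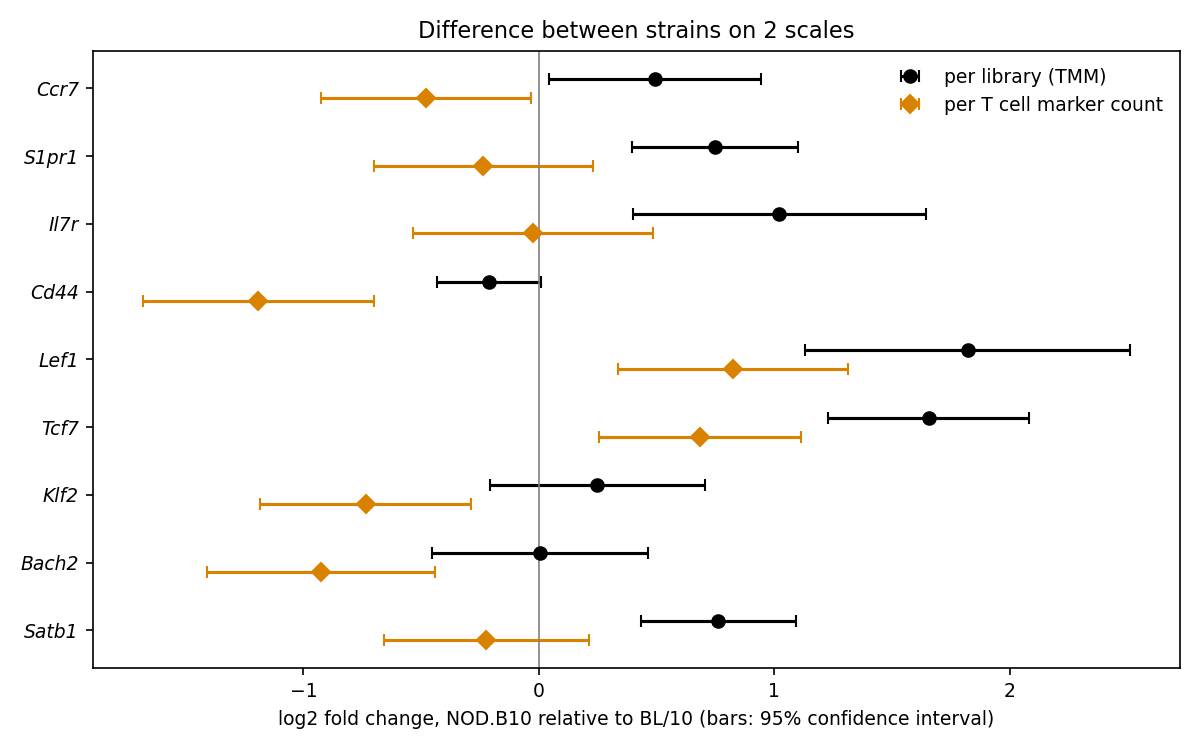
Log2 fold change of each gene in NOD.B10 relative to BL/10 on the x axis, scaled by library size (black circles) and by the summed T cell marker count (orange diamonds), with bars for the 95% confidence interval. Lef1 and Tcf7 stayed above 0 on both scales, and Cd44 had the lowest value on both.

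Levels of different genes were compared per length, as TPM (transcripts per 1000000). In NOD.B10 the order was S1pr1 (223 ± 42.8 TPM, SD, n = 3), Ccr7 (156 ± 33.2), Tcf7 (145 ± 33.2), Klf2 (139 ± 35.6), Il7r (79.6 ± 37.5), Cd44 (72.6 ± 6.85), Satb1 (12.3 ± 2.44), Lef1 (11.4 ± 4.84) and Bach2 (10.7 ± 1.03). The libraries of neighbours in this order overlapped everywhere except between Cd44 and Satb1, so the 9 genes formed an upper group of 6 and a lower group of 3. The lower 3 also have the longest deposited lengths, at 19027 bases for Satb1, 9940 for Bach2 and 8788 for Lef1. The other genes have at most 6776 bases. The part of these lengths in the grouping was not tested. In BL/10 the order was S1pr1 (126 ± 20.8 TPM, SD, n = 3), Klf2 (111 ± 26.1), Ccr7 (105 ± 29.0), Cd44 (80.0 ± 3.39), Tcf7 (43.8 ± 9.69), Il7r (36.9 ± 1.83), Bach2 (10.2 ± 3.23), Satb1 (6.91 ± 0.995) and Lef1 (3.04 ± 0.798). Here neighbours did not overlap between Cd44 and Tcf7, between Il7r and Bach2, and between Satb1 and Lef1. Tcf7 stood at rank 3 in NOD.B10 and at rank 5 in BL/10, and Cd44 at ranks 6 and 4. The level of the second HMG-box gene, Lef1, was far below that of Tcf7 in every library.

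Genes linked to the same program were read from 4 lists of genes chosen by their described roles, to be read beside the 17.3% of all genes that were called in either direction. Of 25 genes of naive identity and quiescence, 8 were higher and none was lower in NOD.B10 at an adjusted p under 0.05 in edgeR, and their median log2 fold change was 0.22. The largest were Cd27, a costimulatory receptor of the TNF receptor family, at 1.33 (SE 0.17, edgeR adjusted p = 0.00222) and Dgka, a diacylglycerol kinase that dampens T cell receptor signals, at 1.16 (SE 0.22, edgeR adjusted p = 0.0104). Among the called genes, Ets1, a lymphoid transcription factor, followed at 0.81 (SE 0.21, edgeR adjusted p = 0.0344). It lost the call without NOD.B10 replicate 1 or 3 or BL/10 replicate 2 or 3. Foxo1, the factor that drives Klf2 and Il7r, had 103, 88.5 and 114 CPM in NOD.B10 and 84.2, 58.9 and 63.5 CPM in BL/10. Its log2 fold change of 0.57 (SE 0.16, edgeR adjusted p = 0.0436) was close to the threshold and lost the call without NOD.B10 replicate 1 or 3 or BL/10 replicate 2 or 3. The call was also lost with at least 10 counts required in every library (edgeR adjusted p = 0.0509). Without BL/10 replicate 1, 13 of the 25 genes were called, beside 26.3% of all genes tested, and without NOD.B10 replicate 1, 2 of the 25 were called, beside 8.12% of all genes.

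Of 24 genes for ligands and signaling partners of the receptors, 23 were tested, 3 were higher and 3 were lower in NOD.B10, and the median of the 23 log2 fold changes was 0.13. Ccl19, a ligand of CCR7 made by stromal cells of the T cell zone, had 2.93, 3.01 and 4.10 CPM in NOD.B10 and 1.09, 1.14 and 1.48 CPM in BL/10 (log2 fold change 1.43, SE 0.24, edgeR adjusted p = 0.00690). Il7, the ligand of the IL-7 receptor, had 16.3, 14.7 and 13.5 CPM in NOD.B10 and 10.4, 8.25 and 9.55 CPM in BL/10 (log2 fold change 0.66, SE 0.13, edgeR adjusted p = 0.0146). Thus the strains did not overlap for either ligand, although Il7 lost the call without NOD.B10 replicate 1 (edgeR adjusted p = 0.0672). Ccl21a, the other CCR7 ligand gene, had at most 1 count in any library and was not tested, and reads shared with its near-identical copies were not counted.

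Jak3, the kinase of the common gamma chain that pairs with the IL-7 receptor, was also higher (log2 fold change 0.58, SE 0.10, edgeR adjusted p = 0.00736). The lower genes were Spp1, which encodes the CD44 ligand osteopontin, at -2.08 (SE 0.27, edgeR adjusted p = 0.00218), and Sphk1 and Mfsd2b. The last 2 make sphingosine-1-phosphate and export it from red blood cells and platelets, and their log2 fold changes were -1.05 and -0.86 (SE 0.19 and 0.22, edgeR adjusted p = 0.00980 and 0.0372). The call of Mfsd2b was lost in 4 of the 6 fits without a library.

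Of 16 genes for cofactors, relatives and targets of TCF-1 and LEF-1, 3 were higher and none was lower, and the median of the 16 log2 fold changes was 0.14. This share of 18.8% was close to the 17.3% of all genes called. Axin2, a widely used target of beta-catenin with these factors, had 10.8, 11.6 and 13.9 CPM in NOD.B10 and 7.28, 5.77 and 6.71 CPM in BL/10. The strains did not overlap (log2 fold change 0.88, SE 0.15, edgeR adjusted p = 0.00834). Bcl9l and Bcl9, which link beta-catenin to its coactivators, were at 0.56 and 0.43 (SE 0.15 and 0.12, edgeR adjusted p = 0.0378 and 0.0457), and both lost the call in 4 of the 6 fits without a library. Ctnnb1, which encodes beta-catenin itself, overlapped between the strains at a log2 fold change of 0.07 (SE 0.09, edgeR adjusted p = 0.627).

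Of 30 memory and effector genes, 4 were higher and 4 were lower in NOD.B10, and the median of the 30 log2 fold changes was 0.09. Gzmk, a granzyme of memory CD8 T cells, had 8.01, 5.28 and 6.12 CPM in NOD.B10 and 2.66, 2.41 and 0.682 CPM in BL/10 (log2 fold change 1.76, SE 0.41, edgeR adjusted p = 0.0264). It lost the call without NOD.B10 replicate 1 or 3 or BL/10 replicate 2. Icos, a costimulatory receptor of activated T cells, and Runx3, a factor of CD8 T cells, were higher by log2 fold changes of 0.81 and 0.65 (SE 0.15 and 0.09, edgeR adjusted p = 0.0113 and 0.00351). Prdm1, which encodes BLIMP-1 of effector T cells and plasma cells, stood at 0.64 (SE 0.12, edgeR adjusted p = 0.00968), and Tbx21, which encodes T-bet, at 0.39 (SE 0.16, edgeR adjusted p = 0.130).

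The lowest memory gene was Ly6c2, a surface marker of memory CD8 T cells and monocytes, with 10.2, 9.27 and 10.4 CPM in NOD.B10 and 115, 229 and 128 CPM in BL/10. This gap corresponded to a log2 fold change of -3.98 (SE 0.28, edgeR adjusted p = 0.000145). The gene belongs to a family of close copies whose shared reads were not counted, and their part in the gap was not tested. Ccl5, a chemokine of memory CD8 T cells and NK cells, and Lgals1, which encodes galectin-1, were lower by smaller log2 fold changes of -0.55 and -0.38 (SE 0.12 and 0.11, edgeR adjusted p = 0.0209 and 0.0458). Lgals1 lost the call without NOD.B10 replicate 1, 2 or 3 or BL/10 replicate 2, and Ccl5 without NOD.B10 replicate 3 or BL/10 replicate 2. Lgals1 also lost it with upper-quartile normalization or a replicate block (edgeR adjusted p = 0.0540 and 0.0507) and with limma-voom (adjusted p = 0.0533). With age as a covariate and with only libraries labelled 26 weeks, Cd27, Spp1, Ly6c2 and Runx3 were the only genes named from the 4 lists that edgeR called in both fits. With age as a covariate, the log2 fold change was 0.75 for Dgka, 0.45 for Ets1, 0.28 for Foxo1, -0.70 for Sphk1 and -0.52 for Mfsd2b. These genes were not called in that fit.

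Markers of other cells that carry some of the 9 genes were measured beside them. Their counts are to be read beside the 9.11% of all genes tested that were higher and the 8.22% that were lower. B cell markers summed to 5339, 4600 and 6052 CPM in NOD.B10 and 6203, 3378 and 3717 CPM in BL/10, led by Ms4a1, and 0 of 12 were called in edgeR. BL/10 replicate 1, the library in which Bach2 was highest and Ccr7 and Klf2 reached NOD.B10 levels, thus also had the highest B cell marker level. Plasma cell markers summed to 3807, 4328 and 4189 CPM in NOD.B10 and 3142, 2758 and 2463 CPM in BL/10, led by Jchain, with 5 of 10 higher and none lower. Neutrophil markers, of which S100a9 was the most abundant, were lower in NOD.B10 for 11 of 13 genes. Their sum of 2386, 2618 and 2247 CPM in NOD.B10 stood against 6286, 13071 and 11466 CPM in BL/10. No gene of these 3 lists was at 0. The part of these cells in the levels of Cd44, Ccr7, Klf2 and Bach2 was not tested.

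**Figure D3:**
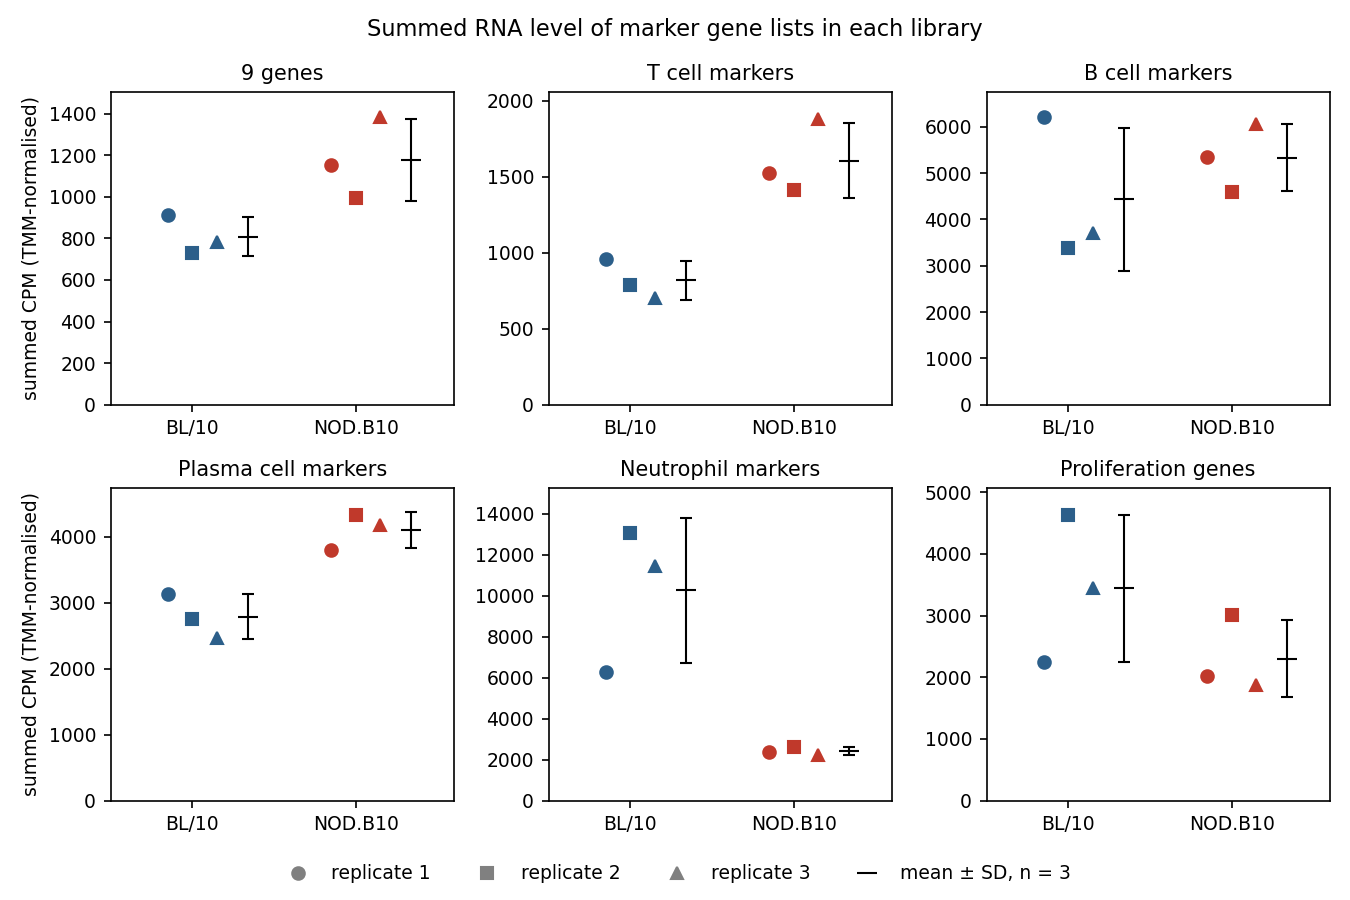
Summed CPM (TMM-normalised, y axis) of the 9 genes, of markers of T cells, B cells, plasma cells and neutrophils and of proliferation genes in each library, with marker shape for the replicate and black bars for the mean ± SD. T cell markers lay between 1410 and 1880 CPM in NOD.B10 and between 702 and 960 CPM in BL/10, as the sum of the 9 genes did at 997 to 1386 and 729 to 911 CPM.

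Markers of further cell types were counted in the same way, to be read beside the 17.3% of all genes called in either direction. Parentheses name the most abundant gene of each list, whether it was called or not. In edgeR, 2 of 8 NK cell markers were higher and 1 was lower (most abundant Klrd1), 2 of 12 macrophage markers were higher and 1 was lower (Hmox1), and 0 of 9 dendritic cell markers were called (Itgax). Of 12 erythroid markers 1 was lower (Hbb-bs), of 8 megakaryocyte markers 2 were lower (Ppbp), of 8 endothelial markers 2 were higher and 1 was lower (Pecam1), and of 10 stromal markers 2 were higher and 1 was lower (Cxcl13). No adipocyte gene of 5 tested (Fabp4) and no proliferation gene of 8 (Mki67) was called. All 14 pancreas acinar genes tested were lower in NOD.B10 (Cela1).

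The 9 genes did not all vary alike across the 6 libraries. Measured against the mean of their standardised log2 CPM, to which each gene itself contributes, Pearson's r was 0.97 for Ccr7 and S1pr1, 0.96 for Satb1, 0.90 for Klf2, 0.87 for Tcf7, 0.85 for Lef1 and 0.82 for Il7r, but 0.41 for Bach2 and -0.48 for Cd44. Bach2 and Cd44 thus departed from the shared profile. Outside the list, the genes of mean level of at least 5 CPM whose profiles came nearest were Coq8b (r = 0.998), Unc45a (r = 0.997), Zfp839 (r = 0.995), Phka1 (r = 0.995) and Fgd3 (r = 0.995). Their levels spanned 10.9 to 17.1 CPM, 30.8 to 43.2 CPM, 14.0 to 16.0 CPM, 10.3 to 17.9 CPM and 72.7 to 115 CPM, and each was lowest in BL/10 replicate 2 and highest in NOD.B10 replicate 3. These values describe 6 libraries that share the strain difference, and with so few libraries many genes among 15330 reach a high r.

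In the genome, the 9 genes lie on 7 chromosomes of build GRCm38, with Lef1 and S1pr1 both on chromosome 3 and Ccr7 and Tcf7 both on chromosome 11. Counts covered the exons of each gene without regard to strand, and reads that touch more than 1 gene were dropped. Over 1208 bases, exons of Lef1 overlap those of the antisense gene Gm43352, which held 0 to 10 counts. Bach2 overlaps Bach2os over 537 bases (6 to 17 counts), and Satb1 overlaps Gm36931 and Gm6934 over 156 and 128 bases (at most 5 and 43 counts). Positions and overlaps were read from a GENCODE annotation, which is not the one used for the counts. The limits can differ, as for Il7r, which spans chr15:9506161-9529876 in the counts. Reads that touch stretches shared in both annotations were thus counted for neither gene, and the counts of Lef1, Bach2 and Satb1 leave them out.

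The start regions of the genes were searched for letters bound by the factors of the program. RefSeq promoters (GRCm38.p6), each spanning 250 bases before to 50 bases after a start, were held for 7 of the 9 genes, with 15 promoters in all, and not for Ccr7 and S1pr1. The letters were TCAAAG for TCF-1 and LEF-1, TGTTTAC for FOXO factors, GGGTGTGG for KLF factors and TGAGTCA for the BACH and AP-1 core, all on both strands. They occur in 16.0%, 3.65%, 3.56% and 5.20% of 32851 promoters of all genes. TCAAAG was found in 2 of the 15 promoters, of Lef1 and Bach2, the FOXO and KLF letters in 1, of Tcf7, and TGAGTCA in none. A match of such short letters describes the sequence only.

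The promoters with a match are shown for Lef1, Tcf7 and Bach2, 5′ to 3′ on the strand of the gene, with the matched letters in capitals. All 3 belong to starts inside the gene. That of Lef1 (chr3:131156044-131156343, plus strand) holds TCAAAG at bases 71 and 131 of the window. That of Tcf7 (chr11:52282546-52282845, minus strand) holds GGGTGTGG at base 182 and the reverse complement of TGTTTAC at base 252. That of Bach2 (chr4:32417185-32417484, plus strand) holds TCAAAG at base 158.
Lef1: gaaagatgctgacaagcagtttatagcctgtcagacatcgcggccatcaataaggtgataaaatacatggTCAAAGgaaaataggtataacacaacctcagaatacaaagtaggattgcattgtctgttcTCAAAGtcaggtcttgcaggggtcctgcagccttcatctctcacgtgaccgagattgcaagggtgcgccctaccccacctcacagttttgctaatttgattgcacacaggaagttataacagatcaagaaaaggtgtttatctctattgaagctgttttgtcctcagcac
Tcf7: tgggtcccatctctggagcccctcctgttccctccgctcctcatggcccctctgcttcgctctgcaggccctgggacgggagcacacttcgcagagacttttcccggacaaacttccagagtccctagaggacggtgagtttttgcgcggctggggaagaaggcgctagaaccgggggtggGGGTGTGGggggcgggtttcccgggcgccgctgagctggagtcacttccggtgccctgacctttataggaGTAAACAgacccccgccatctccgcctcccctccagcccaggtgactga
Bach2: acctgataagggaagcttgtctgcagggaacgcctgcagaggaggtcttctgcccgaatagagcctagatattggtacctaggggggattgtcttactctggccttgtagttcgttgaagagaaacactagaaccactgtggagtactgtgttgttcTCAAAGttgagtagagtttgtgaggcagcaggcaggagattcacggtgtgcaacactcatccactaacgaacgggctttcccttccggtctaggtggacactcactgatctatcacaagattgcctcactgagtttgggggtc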

How the data were processed

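RNA of whole spleens was sequenced in 6 libraries, 3 per strain. The authors deposited raw read counts per gene, made with featureCounts version 1.5.1 on exons of Ensembl release 84 (GRCm38) per the file headers. The submitters' processing notes name HISAT2 version 2.0.5 as a tool, whereas the study's methods name Tophat2, so the aligner is uncertain. Totals ranged from 15662712 to 18298451 counts, which puts a floor of 3 counts between 0.164 and 0.192 CPM (counting error only). Gene symbols were matched for 47224 of 47729 identifiers.

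Strains were taken from the descriptions and column names. The description of BL/10 replicate 3 gives another sequencing sample number than its column, which was matched by library number and strain. Libraries of a strain are labelled as biological replicates, and their counts differed by more than sampling noise (chi-square over its degrees of freedom, 13.6 or more). Counts were filtered by filterByExpr, scaled by TMM and compared in R version 4.3.3 with the quasi-likelihood test of edgeR version 4.0.16, adjusted by Benjamini-Hochberg over all tested genes (threshold 0.05). Standard errors were derived from the fold change and F statistic. An exact permutation test of 3 against 3 cannot give a p below 0.1 and was not used. The fitting code was tested on simulated data. TPM used the deposited gene lengths. A further edgeR fit took the log summed count of T cell markers as offset. Likeness used log2 of CPM plus 0.1. Alternatives used DESeq2 version 1.42.0, limma version 3.58.1, other normalizations and filters, age, a block and left-out libraries.

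The genes, the lists and the tests were chosen with earlier results of these data known. Named genes were all 9, the 3 called genes with the largest change each way in each related list, 7 genes whatever their values (Foxo1, Ccl19, Ccl21a, Il7, Ctnnb1, Tbx21 and Prdm1), the 5 with the highest likeness, and each marker list's most abundant gene and genes at 0. Cd2, Cd8a and Cd8b1 were named after their values were seen.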

Additional observations from a re-analysis of the deposited data

How the results depend on the processing

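Fits that held age constant called the fewest genes. With age as a covariate, 943 genes passed the threshold, and with only libraries labelled 26 weeks, 1001 did, against 2656 overall. Of the 9 genes, 1 passed in each fit, against 5. The naive list had 2 and 2 calls (against 8), the ligand list 2 and 1 (against 6), the TCF cofactor list 0 and 0 (against 3), the memory list 3 and 3 (against 8) and the T cell list 11 and 11 (against 17). In the same fits, in this order, the log2 fold change turned negative for Klf2 (-0.044 and -0.045), Bach2 (-0.40 and -0.40) and Cd2 (-0.33 and -0.33). In both, BL/10 replicate 1 alone stands for BL/10 at 26 weeks, so age and library cannot be told apart.

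At an adjusted p under 0.01, 1035 genes passed, with 2 of the 9 genes, 1 naive, 1 TCF cofactor and 3 memory genes. With limma-voom and quality weights, 5 TCF cofactor genes passed. With each library left out in turn, between 1269 and 4107 genes passed, with 3 to 5 of the 9 genes, 2 to 13 naive, 4 to 7 ligand, 1 to 5 TCF cofactor, 4 to 9 memory and 15 to 18 T cell genes. Log2 fold changes then ran from -0.16 to 0.25 for Bach2, -0.025 to 0.41 for Cd2 and -0.021 to 0.29 for Cd8a, and per T cell marker count from -0.26 to 0.13 for Il7r. Bach2 was also just negative with DESeq2 (-0.0038), RLE size factors (-0.0045), no filter (-0.0042) and at least 10 counts in every library (-0.0064). The causes were not tested.

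Deviations of same-numbered libraries from their strain means correlated at 0.0316, 0.172 and -0.0837 for replicates 1 to 3. Those of differently numbered libraries correlated between -0.184 and 0.158. With so few libraries, these values cannot tell whether replicate numbers pair the mice. With the replicate block, 2889 genes and 5 of the 9 genes passed.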
